A study of Homo sapiens with 9 samples.

Results

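The PTB splicing regulators and their closest relatives are RNA-binding proteins that decide which exons enter a messenger RNA. The set described here holds 6 genes of the 60675 gene IDs in the table, found by symbol: the paralogs PTBP1, PTBP2 and PTBP3, the related hnRNP L proteins HNRNPL and HNRNPLL, and RAVER1, a protein that binds PTB and acts as its co-repressor. The set was chosen by the low level of PTBP1 at 40 µM in these same libraries, so the differences of PTBP1 are a description and carry no test, while the other 5 members were tested with results of these data already known. All 6 passed the filter on low counts.

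The cells were MM.1S, an established human multiple myeloma line grown in culture. EGCG (epigallocatechin gallate), a polyphenol from tea leaves, was given at 0, 40 or 80 µM for 24 h, and the cells at 0 µM are called the control. Each dose had 3 RNA sequencing libraries, all from the same line, so every group carries that line's genome. Nothing in the labels tells whether replicates came from separate cultures, so a p-value here measures only the spread between these libraries, which may be technical.

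PTB binds pyrimidine-rich stretches of RNA, mostly near exons that it keeps out of the mature transcript. PTBP1 is made in most dividing cells, PTBP2 is known as the neuronal paralog, and PTBP3 is known from blood-forming cells. PTBP1 also acts on its own family: it promotes skipping of a short exon in its own transcript and in that of PTBP2, and the skipped transcripts are out of frame and decay. HNRNPL and HNRNPLL bind CA-rich RNA and are best known in lymphocytes for the splicing of the CD45 transcript, and HNRNPLL is known to rise as B cells become plasma cells.

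The short exon of this regulation in PTBP1 and PTBP2 is shown beside the 34-base exon of PTBP3 that is most like it, to compare the paralogs. In GENCODE 29 on GRCh38 these exons lie at chr19:807869-807902 on the plus strand in PTBP1, chr1:96806419-96806452 on the plus strand in PTBP2 and chr9:112231380-112231413 on the minus strand in PTBP3. Capitals mark the 19 bases that stand at the same place in all 3.
PTBP1: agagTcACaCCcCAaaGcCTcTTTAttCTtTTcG
PTBP2: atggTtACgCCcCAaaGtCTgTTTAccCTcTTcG
PTBP3: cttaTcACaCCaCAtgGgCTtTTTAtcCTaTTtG
The PTBP2 exon had 25 of 34 bases as in PTBP1, the PTBP3 exon had 22, and PTBP2 and PTBP3 had 21 alike. Of 21 annotated PTBP1 transcripts, 6 held the exon and 5 skipped it. Of 11 PTBP2 transcripts, 6 held it and 3 skipped it. Of 8 PTBP3 transcripts, 5 held the exon shown and 0 skipped it, and another 34-base exon of PTBP3 (chr9:112330441-112330474), not shown, was held by 3 and skipped by 5. The counts are summed per gene over all transcripts, so how often the exon was used was not measured.

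Library totals ran from 12674490 to 16427343 counts, and 15982 genes were tested. All 10 plasma cell and myeloma markers reached a mean of 5 CPM (counts divided by the scaled library size), with sums of 8337 to 8563 CPM in the control, 7846 to 8400 with 40 µM and 6672 to 7257 with 80 µM. Single markers moved in both directions behind these sums, named here after their values were seen. From control to 80 µM, JCHAIN went from 2051 ± 112 to 1164 ± 147 CPM and MAF from 1805 ± 13.4 to 1037 ± 100. IRF4 went from 1012 ± 15.8 to 1667.5 ± 33.2 CPM and SLAMF7 from 465 ± 7.22 to 635 ± 24.3. At 40 µM IRF4 was already higher than in the control, at 1357 ± 80.2 CPM. SDC1 was lower there, at 444 ± 56.9 CPM against 926 ± 31.5 in the control, and was at 585 ± 266 with 80 µM. The 4 mature B cell markers were under 1 CPM, 2 of them at 0 in every library. Mitochondrial ribosomal RNA took 0.649 to 0.731% of counts in the control, 1.28 to 1.63% with 40 µM and 3.97 to 4.65% with 80 µM, and the part of this shift in the results was not tested. In bulk RNA, fewer cells with a transcript and less of it per cell cannot be told apart.

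A gene was called when its Benjamini-Hochberg adjusted p from edgeR's quasi-likelihood test, taken over all 15982 genes, was under 0.05. At 40 µM against control 2.30% of genes were called, 0.813% lower and 1.49% higher. None of the 5 tested members was called there by edgeR, and 2 of them, HNRNPLL (0.0058) and RAVER1 (0.013), had an unadjusted p under 0.05. Over all genes, 3188 of 15982 had an unadjusted edgeR p under 0.05 at 40 µM. At 80 µM against control 34.9% of genes were called, 17.5% lower and 17.4% higher. Of the 5 tested members RAVER1 was called lower and PTBP2 and HNRNPLL higher, which is 3 of 5. Between the doses, 80 µM against 40 µM, 23.0% of genes were called, 12.1% lower and 10.9% higher, and of the 5 tested members RAVER1 alone was called, lower at 80 µM. Both comparisons with the control use the same 3 control libraries.

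**Figure D1:**
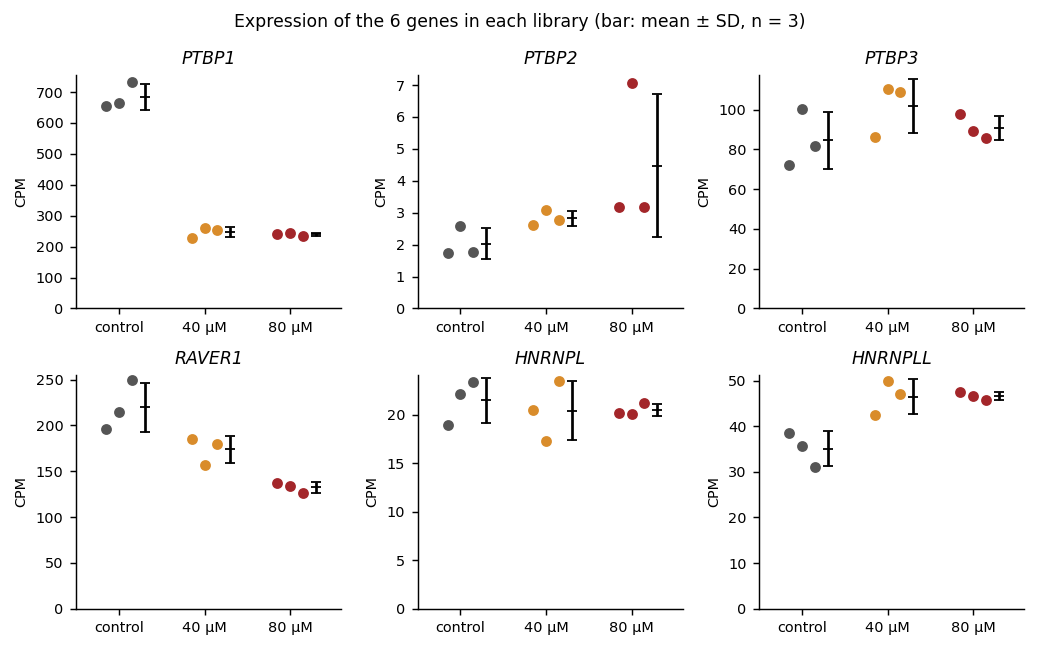
Expression of the 6 genes in CPM (vertical axes from 0, a scale for each gene) in every library (points) of the control, 40 µM and 80 µM groups, with the mean ± SD (bars, n = 3). PTBP1 stands between 230 and 261 CPM in all 6 treated libraries against 655 to 732 in the control, and 1 of the 80 µM libraries of PTBP2 stands far above the other two.

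PTBP1 (ENSG00000011304, chr19:797075-812327, plus strand), the main repressor of the family, was at 655, 665 and 732 CPM in control replicates 1, 2 and 3. It was at 230, 261 and 252 CPM at 40 µM, and at 240.3, 245 and 235 CPM at 80 µM. Every treated library lay far below every control library, and the treated groups overlapped each other. Group means were 684 ± 41.6 CPM, 248 ± 16.3 and 240.3 ± 5.18 (SD, n = 3 each). The log2 difference from control was -1.47 ± 0.09 (SE, 95% interval -1.67 to -1.26) at 40 µM, which left 36.2% of the control level. At 80 µM it was -1.51 ± 0.09 (95% interval -1.72 to -1.30), or 35.1% of the control level. Between the doses it was -0.04 ± 0.09, with a 95% interval from -0.25 to 0.16.

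Ordered from the lowest log2 difference, PTBP1 was number 65 of the 15982 genes at 40 µM and number 216 at 80 µM. Of 2210 genes with a mean above 100 CPM, 6 were below -1 on the log2 scale at 40 µM and 85 at 80 µM, PTBP1 among them at both doses. PTBP1 was chosen by its low level at 40 µM, so these places describe it and carry no test. The 62-base miRNA gene MIR4745 (chr19:804940-805001) lies on the same strand within PTBP1 exons and was listed with a count of 1 in each of the 9 libraries, a value that 322 IDs share. The processed pseudogene PTBP1P had 1 to 9 counts per library, against at least 3023 for PTBP1. No 50-base stretch of annotated transcript was shared between PTBP1 and either paralog.

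PTBP2 (ENSG00000117569, chr1:96721665-96823738, plus strand), the neuronal paralog, was scarce. Its control libraries held 26, 35 and 23 counts, those at 40 µM held 43, 43 and 38, and those at 80 µM held 43, 111 and 41. These equal 1.75, 2.6 and 1.76 CPM, then 2.62, 3.09 and 2.76 CPM, then 3.19, 7.05 and 3.19 CPM. No treated library was below a control library, and replicate 2 at 80 µM stood apart from all others. The log2 difference from control was 0.47 ± 0.35 (SE, 95% interval -0.29 to 1.24, adjusted p = 0.468) at 40 µM. PTBP2 rose at 80 µM, by 1.14 ± 0.34 on the log2 scale (95% interval 0.40 to 1.89, edgeR adjusted p = 0.0236). Without replicate 2 at 80 µM the log2 difference was 0.66 and the call ended (adjusted p = 0.101), and it also ended when control replicate 1 (log2 difference 1.06, adjusted p = 0.0764) or control replicate 3 (log2 difference 1.03, adjusted p = 0.0813) was left out. Between the doses the log2 difference was 0.67 ± 0.33 (adjusted p = 0.169), and 0.19 without replicate 2 at 80 µM (adjusted p = 0.69).

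PTBP3 (ENSG00000119314, chr9:112217716-112333667, minus strand), the paralog of blood-forming cells, was at 72.1, 100.3 and 81.7 CPM in the control. It was at 86.5, 110.7 and 109 CPM at 40 µM, and at 97.7, 89.3 and 85.9 CPM at 80 µM. The 3 groups overlapped. The log2 differences were 0.27 ± 0.14 (95% interval -0.05 to 0.58, adjusted p = 0.32) at 40 µM and 0.10 ± 0.14 (95% interval -0.21 to 0.42, adjusted p = 0.615) at 80 µM, and neither was called.

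**Figure D2:**
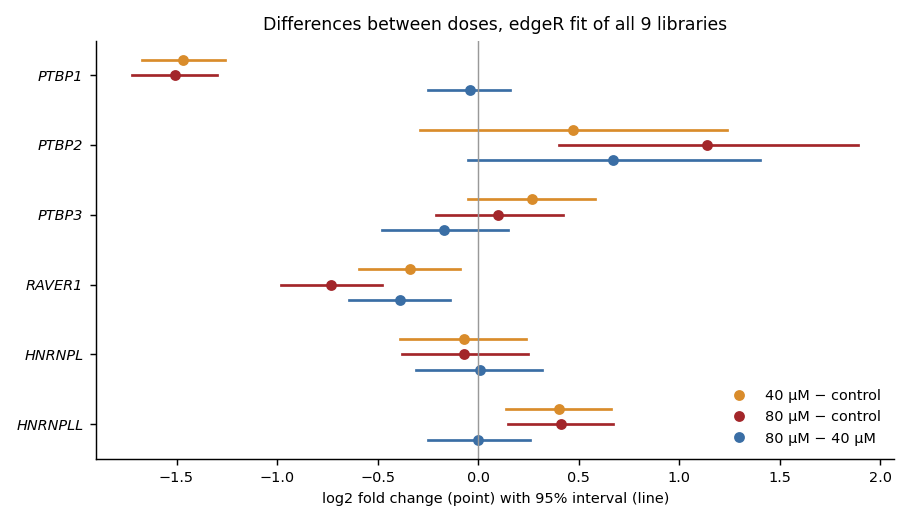
Log2 fold change (horizontal axis; points) with its 95% interval (lines) for each gene in the 3 comparisons named in the legend, from the edgeR fit of all 9 libraries. PTBP1 lies near -1.5 at both doses, RAVER1 goes from -0.34 to -0.73, and HNRNPLL lies near 0.4 at both.

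The balance within the PTB family was compared per length. The gene lengths implied by the deposited FPKM were longer than the merged exons of GENCODE 29, with a median ratio of 1.62 over 11532 genes with a mean count above 50. They were closer to the sum of distinct exons with overlaps counted again (median ratio 1.0). However, only 46.9% of genes were within 1% of that sum, and PTBP1, PTBP2, HNRNPLL and RAVER1 were not. The implied length of PTBP1 was 22554 bases against 6883 merged bases, a ratio of 3.28, while the ratio was 1.7 to 2.2 for the other 5 members. FPKM therefore places PTBP1 low against its relatives, and levels are given on both scales, the second as CPM per kilobase of merged exons.

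Per kilobase of merged exons, the 3 PTB genes summed to 109.8 ± 6.17 CPM per kb (SD, n = 3) in the control, to 48.6 ± 4.0 with 40 µM and to 46.3 ± 1.27 with 80 µM. PTBP1 made up 91.5, 88.6 and 91.4% of this sum in the control libraries, 75.7, 73.5 and 73.2% at 40 µM and 74.3, 75.8 and 76.2% at 80 µM. PTBP3 made up 9.37 ± 1.57% in the control, 25.4 ± 1.38% with 40 µM and 23.8 ± 1.20% with 80 µM. PTBP2 stayed the smallest, at 0.144 ± 0.0358%, 0.45 ± 0.0202% and 0.745 ± 0.359%. On the FPKM scale PTBP1 was 86.4 ± 2.18, 65.7 ± 1.61 and 67.2 ± 1.22% of the sum. On both scales PTBP1 remained the most abundant PTB transcript in each library. These shares contain the value that chose the set, so they have no test.

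**Figure D3:**
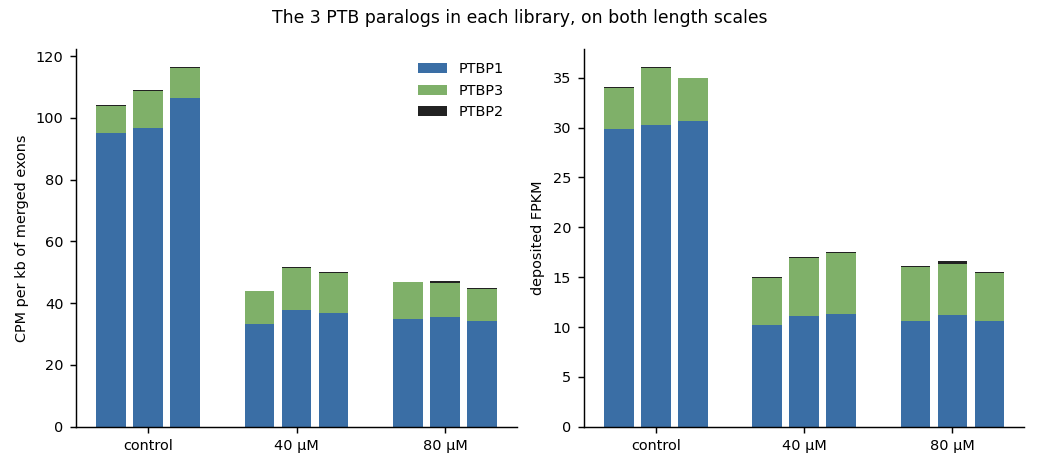
Stacked levels of PTBP1, PTBP3 and PTBP2 in each library, as CPM per kb of merged exons (left) and deposited FPKM (right), both axes from 0. The sum is 104 to 116 CPM per kb in the control libraries and 44.1 to 51.6 in the treated ones, PTBP3 keeps its height, and PTBP2 is barely visible.

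Within a library, the log2 ratio of PTBP3 to PTBP1 in FPKM was -2.70 ± 0.257 in the control, -0.961 ± 0.106 with 40 µM and -1.08 ± 0.0907 with 80 µM. The log2 ratio of PTBP2 to PTBP1 was -8.75 ± 0.369, -6.79 ± 0.0558 and -6.19 ± 0.635. In both ratios every treated library lay above every control library. These ratios do not depend on the scaling between libraries. Both contain the PTBP1 value that chose the set, so their separation is a description and has no test.

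RAVER1 (ENSG00000161847, chr19:10316212-10333640, minus strand), the co-repressor of PTB, was at 196, 214 and 249 CPM in the control. It was at 185, 157 and 179 CPM at 40 µM and at 137, 134 and 126 CPM at 80 µM. The 3 groups did not overlap. The log2 difference was -0.34 ± 0.11 (95% interval -0.59 to -0.09, adjusted p = 0.142) at 40 µM, which missed the threshold. RAVER1 fell by 0.73 ± 0.11 on the log2 scale at 80 µM (edgeR adjusted p = 0.00079), and its log2 difference of 80 µM from 40 µM was -0.39 ± 0.11 (adjusted p = 0.0308). Leaving out 1 library ended the call between the doses in 5 of the 9 cases, with adjusted p from 0.0569 to 0.12 without 40 µM replicate 1 or 3 or any of the 80 µM replicates.

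RAVER1 shares 1693 exonic bases with AC011511.4, a gene on the same strand. AC011511.4 had 0 counts in each control library. Its counts at 40 µM were 18, 0 and 0, and those at 80 µM were 28, 32 and 99, against at least 1619 for RAVER1 in any library. With the counts of both summed, an alternative chosen after seeing the data, the log2 difference from control was -0.69 ± 0.11 at 80 µM (edgeR adjusted p = 0.00104). Between the doses it was -0.35 ± 0.11 (edgeR adjusted p = 0.044). The antisense gene AC114271.1 shares 205 exonic bases and had 101 to 176 counts, and no source used here states whether the counting used strand. RAVER2, the paralog of RAVER1 and no member of the set, was at 43.4 ± 4.49 CPM in the control, 48.3 ± 2.09 with 40 µM and 36.5 ± 1.61 with 80 µM, and was called in neither comparison with the control. Between the doses it fell, with a log2 difference of -0.40 ± 0.11 (adjusted p = 0.0268), a value named after it was seen. That call ended when 40 µM replicate 2 or 3 or any of the 80 µM replicates was left out, with no filter on low counts and with library totals alone as the scaling.

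HNRNPLL (ENSG00000143889, chr2:38561978-38603586, minus strand), the lymphocyte relative of hnRNP L, was at 38.6, 35.6 and 31.1 CPM in the control. It was at 42.4, 49.99 and 47.0 CPM at 40 µM and at 47.4, 46.5 and 45.7 CPM at 80 µM. All 6 treated libraries were above all 3 control libraries. HNRNPLL rose at 80 µM by 0.41 ± 0.12 on the log2 scale (95% interval 0.15 to 0.67, edgeR adjusted p = 0.0209). Its log2 difference at 40 µM was nearly the same, 0.40 ± 0.12 (95% interval 0.14 to 0.66), with an adjusted p of 0.104, and the difference between the doses was 0.00 ± 0.12 (adjusted p = 0.987). The call at 80 µM ended with no filter on low counts (log2 difference 0.39, adjusted p = 0.0671). It also ended when control replicate 3 was left out (log2 difference 0.31, adjusted p = 0.0655), or 80 µM replicate 1 (0.39, with p adjusted to 0.0601) or replicate 2 (0.42, with p adjusted to 0.0534).

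HNRNPL (ENSG00000104824, chr19:38836388-38852347, minus strand), the widely made member of the pair, was at 18.9, 22.1 and 23.4 CPM in the control. It was at 20.4, 17.3 and 23.4 CPM at 40 µM and at 20.2, 20.02 and 21.2 CPM at 80 µM. All groups overlapped. The log2 difference was -0.07 ± 0.14 at 40 µM (95% interval -0.39 to 0.24, adjusted p = 0.803) and -0.07 ± 0.14 at 80 µM (95% interval -0.38 to 0.25, adjusted p = 0.744).

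The HNRNPL values are uncertain because the unprocessed pseudogene HNRNPLP2 (chr15:34489002-34490571) held more counts than the gene in every library. Its control counts were 711, 627 and 804, those at 40 µM were 690, 600 and 634, and those at 80 µM were 564, 601 and 606, against 241 to 335 for HNRNPL. Of the 1521 stretches of 50 bases in HNRNPLP2, 377 (24.8%) also occur in HNRNPL transcripts, so reads may have been split or moved between the pair. With the counts of both summed, an alternative chosen after seeing the data, the log2 difference from control was -0.19 ± 0.12 at 40 µM (adjusted p = 0.41) and -0.22 ± 0.12 at 80 µM (adjusted p = 0.193). Per kilobase of merged exons HNRNPLP2 was at 33.1 ± 5.24 CPM per kb in the control and HNRNPL at 3.15 ± 0.337. HNRNPL also shares 561 exonic bases with AC008982.1, a protein-coding gene on the same strand that had at most 1 count in any library. Of the 6990 stretches of 50 bases in HNRNPL, 514 (7.35%) also occur in AC008982.1. How this overlap changed the HNRNPL counts was not tested.

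The log2 ratio of HNRNPLL to HNRNPL in FPKM was 0.548 ± 0.309 (SD, n = 3) in the control, against 1.04 ± 0.290 with 40 µM and 1.02 ± 0.0683 with 80 µM. The exact two-sided permutation test gave p = 0.2 for 40 µM and p = 0.1 for 80 µM against control, and 0.1 is the smallest p that 3 against 3 libraries allow. The differences from control, 0.49 and 0.48, ran from 0.32 to 0.65 and from 0.33 to 0.64 when 1 library was left out; the lowest values came without 40 µM replicate 2 and without control replicate 3. The same exact test gave p = 1.0 between the doses.

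Per kilobase of merged exons, the control levels ran from PTBP1 (99.4 ± 6.05 CPM per kb) through RAVER1 (44.1 ± 5.43), PTBP3 (10.3 ± 1.74), HNRNPLL (5.93 ± 0.637) and HNRNPL (3.15 ± 0.337) to PTBP2 (0.157 ± 0.0377). No neighbours in that order overlapped in the control. At 40 µM PTBP1 (36.0 ± 2.37 CPM per kb) and RAVER1 (34.9 ± 3.02) overlapped, and at 80 µM PTBP1 (34.9 ± 0.752) was again above RAVER1 (26.6 ± 1.16). On the FPKM scale RAVER1 was the higher of the pair at 40 µM (16.7 ± 1.86 against 10.8 ± 0.602) and at 80 µM (13.0 ± 0.543 against 10.8 ± 0.353). Their order under treatment therefore depends on the length used.

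The 7 lists of related genes were set beside the members, described by counts and medians only. At 40 µM, where 2.30% of all genes were called, not 1 gene of any list was called in either direction, with list medians from -0.08 to 0.01 on the log2 scale against 0.015 over all genes. At 80 µM the median over all genes was -0.001, and 17.4% of all genes were called higher and 17.5% lower, the shares against which each list's counts below are to be read.

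Of 25 other hnRNP genes, which bind nascent RNA, 11 fell at 80 µM and 0 rose, with a median log2 difference of -0.38. HNRNPAB fell from 424 ± 38.5 to 186 ± 6.78 CPM (-1.19 ± 0.11, adjusted p = 4e-05). HNRNPF, a regulator that binds G-rich RNA, fell by 0.53 on the log2 scale, HNRNPU, a nuclear scaffold protein, by 0.65, and HNRNPM by 0.50. Of 27 core spliceosome genes, 16 fell and 1 rose, with a median of -0.45. SNRPF fell from 74.3 ± 5.07 to 36.1 ± 1.37 CPM (-1.04 ± 0.11, adjusted p = 9.7e-05) and SNRPD1 by 0.97 on the log2 scale, both Sm ring proteins of the spliceosome's small nuclear particles. SNRPD3, another Sm protein, fell by 0.63 and EFTUD2, a GTPase of the U5 particle, by 0.62. The gene that rose was PRPF6, named after its value was seen, from 165 to 217 CPM.

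Of 15 tested partners and antagonists of PTB, 3 rose and 3 fell at 80 µM (median -0.24). MBNL2, a muscleblind splicing factor, rose from 18.5 ± 2.94 to 49.02 ± 16.1 CPM (1.41 ± 0.27, adjusted p = 0.00279). SFPQ, the PTB-associated splicing factor, fell by 0.57, and ELAVL1, the HuR protein, by 0.33. The ELAVL1 call ended whichever 80 µM replicate was left out. CELF1 was also among those that rose and CELF2 among those that fell, both named after their values were seen.

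**Figure D4:**
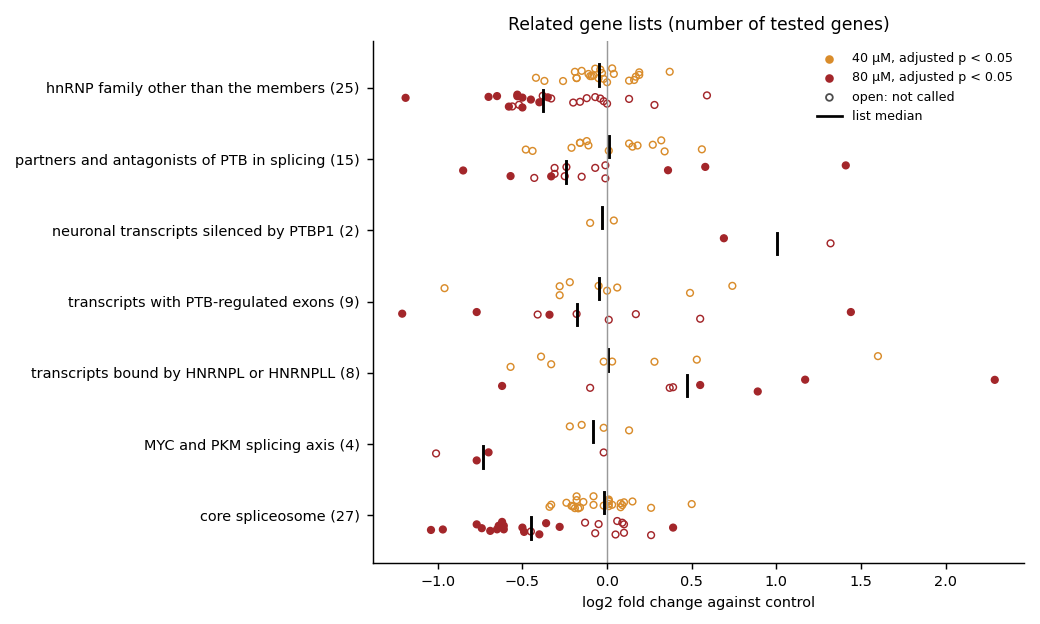
Log2 fold change against control (horizontal axis) of each tested gene in the 7 lists at 40 µM and 80 µM; filled points passed an adjusted p of 0.05, open points did not, and black lines are list medians. No point is filled at 40 µM, and at 80 µM the hnRNP and spliceosome lists have their medians at -0.38 and -0.45.

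Among 6 neuronal transcripts that PTBP1 is known to silence, 2 passed the filter. VAMP2, a vesicle fusion protein, was at 64.6 ± 5.87 CPM in the control and 66.4 ± 5.85 at 40 µM and rose to 104 ± 5.16 at 80 µM (0.69 ± 0.11, adjusted p = 0.00098). DLG4, the synaptic scaffold PSD-95 and the other one tested, was at 0.460 ± 0.157, 0.425 ± 0.311 and 1.16 ± 0.185 CPM and was not called. Beside PTBP2 and VAMP2, the summed level of 5 neuron markers was 5.58 to 8.76 CPM in the control, 20.1 to 23.6 with 40 µM and 38.5 to 53.2 with 80 µM. It came from MAP2 and SYT1, the 2 of 5 whose mean reached 5 CPM, while SNAP25 was at 0 in every library and RBFOX3 and ELAVL3 were under 1 CPM. The part of these genes in the PTBP2 result was not tested.

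Of 9 tested transcripts with exons that PTB is known to regulate, 1 rose and 3 fell at 80 µM (median -0.18), beside 34.9% of all genes called. FAS, the death receptor, rose from 13.9 ± 2.38 to 37.7 ± 12.4 CPM (1.44 ± 0.28, adjusted p = 0.00284). PKM, the pyruvate kinase whose alternative exons PTB helps to select, fell from 604 ± 225 to 356 ± 68.4 CPM (-0.77 ± 0.22, adjusted p = 0.023), a call lost when control replicate 3 was left out (-0.44, adjusted p = 0.0534) or 80 µM replicate 2 or 3 (both -0.67). USP5, a deubiquitinase, fell by 0.34, a call that 8 alternatives ended, among them leaving out any of the 80 µM replicates. The third gene that fell was ACTN1, with a mean of 2.65 ± 1.01 CPM in the control and 1.13 ± 0.277 at 80 µM, named after its values were seen. FGFR2, a growth factor receptor, had a log2 difference of -0.41 ± 0.18 (adjusted p = 0.0952). Gene counts give the level of these transcripts and not the choice of exons.

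The 4 genes of the MYC and PKM splicing axis, in which MYC is known to raise PTBP1, HNRNPA1 and HNRNPA2B1, included 2 that fell at 80 µM, PKM and HNRNPA2B1 (-0.70 ± 0.15, adjusted p = 0.00441). The lists share genes: PKM was already counted among the PTB-regulated transcripts, and HNRNPA1 and HNRNPA2B1 among the other hnRNP genes. These 2 falls are therefore not additional ones. MYC varied widely, at 38.1 ± 31.0 CPM without EGCG, 41.6 ± 20.4 with 40 µM and 18.8 ± 10.7 with 80 µM, with a log2 difference of -1.01 ± 0.59 at 80 µM (adjusted p = 0.21). HNRNPA1 was at 293 ± 36.3 CPM in the control and 289 ± 50.5 at 80 µM (-0.02 ± 0.19, adjusted p = 0.948).

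Of 8 tested transcripts known to be bound by HNRNPL or HNRNPLL, 4 rose and 1 fell at 80 µM (median 0.47), beside 17.4% of all genes called higher and 17.5% lower. BCL2, the survival protein, was at 126 ± 19.5 CPM in the control, 96.5 ± 1.8 with 40 µM and 235 ± 4.27 with 80 µM (0.89 ± 0.12 against control, adjusted p = 0.00028). TJP1, a tight junction protein, rose by 1.17 ± 0.12 on the log2 scale (adjusted p = 8.9e-05) and VEGFA, the vascular growth factor, by 0.55 ± 0.12 (adjusted p = 0.00497). NOS3, the endothelial nitric oxide synthase, fell by 0.62 ± 0.17 on the log2 scale (adjusted p = 0.0174), a call that ended without 80 µM replicate 1 or 2. PTPRC, which encodes CD45 and was named after its values were seen, completed the 4 at 0.164 ± 0.144 CPM in the control and 0.851 ± 0.136 at 80 µM, close to the detection floor of 3 counts (0.183 to 0.237 CPM).

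The genes whose pattern was most like that of PTBP1 were found by the root mean square difference over the 9 libraries of log2 CPM centred on the control mean, over the 10840 genes whose mean reached 5 CPM. Smaller values mean a closer pattern, and the median over all of these genes was 1.23. RGS2, a regulator of G protein signalling, was closest at 0.214, followed by EMID1 at 0.332, MFSD3 at 0.335, DUSP1, a phosphatase of MAP kinases, at 0.336, and PLXND1, a semaphorin receptor, at 0.355. RGS2 was at 85.2 ± 11.6 CPM in the control, 32.7 ± 2.59 with 40 µM and 27.3 ± 4.79 with 80 µM. DUSP1 was at 142 ± 12.5, 37.8 ± 2.23 and 39.9 ± 3.10 CPM, and its log2 difference between the doses was 0.08 ± 0.11. EMID1, MFSD3 and PLXND1 were lower at 80 µM than at 40 µM, with log2 differences of -0.56 ± 0.16, -0.62 ± 0.19 and -0.84 ± 0.16 between the doses. These genes were selected on their pattern, so the values have no test. With a minimum of 1 CPM only 1 of these 5 stayed among the closest 5.

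**Figure D5:**
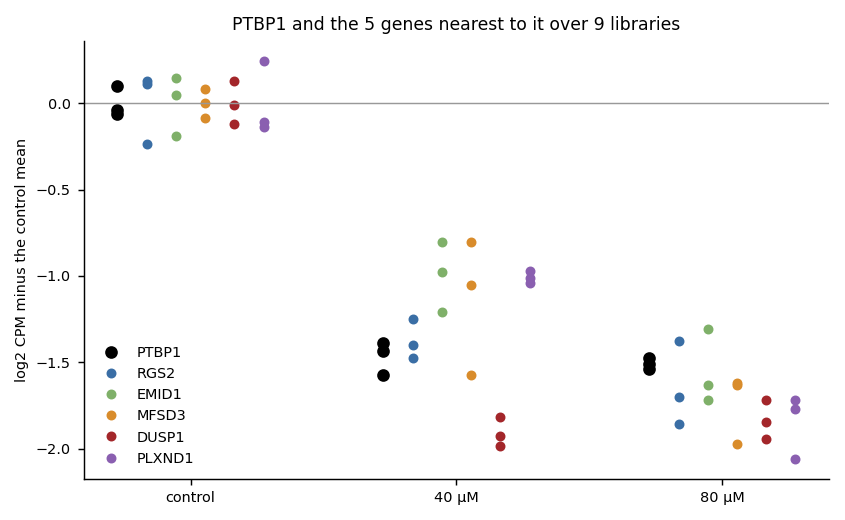
Log2 CPM minus the control mean (vertical axis) of PTBP1 and the 5 genes with the most similar pattern, for each library (points) of the control, 40 µM and 80 µM groups. PTBP1 and DUSP1 keep about the same level at both doses, while EMID1, MFSD3 and PLXND1 are lower at 80 µM than at 40 µM.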

How the data were processed

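RNA sequencing of 9 MM.1S libraries was used, 3 per dose. Per the file headers, the authors deposited a raw count and an FPKM for each gene and library. The deposited counts were taken as whole reads per gene, not normalized. A count of 1 in each of the 9 libraries was listed for 322 IDs, and no source used here gives the reason. The deposited FPKM values, scaled by the authors for length and depth, served only for levels between genes and ratios. GRCh38, HISAT2, CASAVA 1.8, edgeR and SAMtools 1.3.1 are listed in the submitters' processing notes. No source used here gives the counting program, its strand setting or the annotation release.

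Counts were filtered with filterByExpr (15982 genes, 99.71 to 99.83% of each library's counts), scaled by TMM (factors 0.945 to 1.03) and tested in edgeR 4.0.16 (R 4.3.3) by its quasi-likelihood test, fitted to the 9 libraries with dose as the factor. The common biological coefficient of variation was 0.187. Standard errors are the size of the log2 change over the root of the F statistic, and 95% intervals use the test's degrees of freedom. On simulated data of the 40 µM comparison with 15632 genes, 69 of 100 genes changed by 1 on the log2 scale and 92 of 100 changed by 1.5 were called, with 5 false calls among 15437. The simulation gave every gene the same biological coefficient of variation and changed genes at 40 µM only. These rates therefore need not hold for the real libraries. Symbols, positions and the 34-base exons come from GENCODE 29.

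The members and lists were chosen with earlier results of these data known. Named genes are the 6 members, up to 4 genes per list with the smallest p and a mean of at least 5 CPM, the 5 genes closest to PTBP1, and overlapping genes and pseudogenes. A gene that this rule names is not reported here. T and NK cell, monocyte and stromal markers were also read: their sums were 1.56 to 5.27, 4.90 to 15.9 and 0.891 to 3.90 CPM. Alternatives were DESeq2 1.42.0, limma-voom 3.58.1, other scaling, no filter, the 6 libraries compared, a replicate block and leaving out each library. Added after seeing the data were HNRNPL summed with HNRNPLP2 and RAVER1 summed with AC011511.4.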

Additional observations from a re-analysis of the deposited data

Results flagged for a closer look

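AC011511.4, a gene on the same strand that shares exons with RAVER1, had a mean of 3.94 CPM at 80 µM. It had no counts in the control, and 28, 32 and 99 counts in the 80 µM libraries. It drew attention because it was above the control in every 80 µM library. AC011511.4 is not a member, and no test of it on its own is given here. HNRNPLP1, a processed pseudogene of HNRNPL, had a mean of 1.00 CPM at 40 µM and was above the control in every 40 µM library, by little, with 15, 14 and 15 counts against 12, 10 and 11 in the control. At 80 µM it had 8, 7 and 14 counts.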

How the results depend on the processing

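PTBP1 kept its direction against control in all alternatives run, with log2 values of -1.52 to -1.41 at 40 µM and -1.53 to -1.48 at 80 µM over the left-out libraries. The count of genes called at 40 µM, 368, was 228 with no filter, 865 with DESeq2, 183 with the replicate block, 153 with only the 6 libraries compared and 136 to 469 when 1 library was left out. Genes called higher there, 238, were 491 with DESeq2, 130 with the block, 93 with 6 libraries and 99 to 259 with 1 left out; genes called lower, 130, were 64 with no filter, 374, 53 and 60 in the same order and 37 to 210 with 1 left out. At 80 µM against 40 µM, 3674 calls became 2101 to 4059 with 1 library left out (higher 1071 to 1985, lower 1030 to 2074), the lowest 2 without 80 µM replicate 2 (2101) and 3 (2288). Leaving out 1 library gave PTBP2 at 80 µM 0.66 to 1.37, HNRNPLL at 80 µM 0.31 to 0.49, and RAVER1 between the doses -0.46 to -0.35. With no filter HNRNPLL at 80 µM was 0.39 (adjusted p = 0.0671). With the replicate block RAVER1 between the doses was -0.39 (edgeR adjusted p = 0.0573). Same-numbered libraries had correlations of -0.13 to 0.07 over 9 pairs, 0 of them above 0.1. With 3 libraries per group, these correlations cannot tell whether the samples were paired by design. Sign changes were near 0: HNRNPL at 40 µM from -0.18 to 0.02 and between the doses from -0.09 to 0.12 with 1 library left out, -0.01 with no filter and -0.03 with HNRNPLP2 added, an alternative chosen after seeing the data; HNRNPLL between the doses from -0.07 to 0.06, and -0.01 with no filter; and HNRNPA1 at 80 µM, 0.01 with library totals and -0.14 to 0.12 with 1 left out (0.06 without control replicate 3). The share of PTBP1 per kilobase of merged exons, also chosen after seeing the data, was 90.5, 74.1 and 75.4% in place of 86.4, 65.7 and 67.2%. The cause of these shifts was not tested. For list genes the alternatives were compared at 80 µM against control, and elsewhere only where the gene was called.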
